A study of Mus musculus with 4 samples.

Results

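The genes described here encode the pyruvate dehydrogenase kinases (Pdk1, Pdk2, Pdk3 and Pdk4), the subunits of the opposing phosphatases (Pdp1, Pdp2 and Pdpr) and both subunits of their substrate, the E1 enzyme of pyruvate dehydrogenase (Pdha1 and Pdhb). They were picked by gene symbol, and all 9 were found among the 23282 features of the count table. The cells were C2C12 myotubes, the fused muscle cells formed by a female mouse myoblast line, and all of them had been deprived of steroids. The vehicle group (2 libraries) received solvent and the dexamethasone group (2 libraries) received 1 µM of this synthetic glucocorticoid, each for 2 h. RNA was taken from the chromatin pellet of washed nuclei, a fraction rich in transcripts still near their template. The labels name both a stranded total RNA kit and a stranded mRNA kit for the libraries. If the latter was used, selection for polyadenylated RNA would weight the counts towards finished transcripts, and which applies cannot be told from the labels. Everything comes from 1 cell line, and since the labels do not say that the libraries come from separate cultures, the p-values measure only the spread between these libraries, which may be technical.

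Pyruvate dehydrogenase joins glycolysis to the citric acid cycle by turning pyruvate into acetyl-CoA in the mitochondrial matrix. The kinases phosphorylate the E1 alpha subunit and switch the complex off, and the phosphatases remove the phosphate and switch it on again. In skeletal muscle PDK4 is known as the isoform raised by fasting and by glucocorticoids, when muscle spares glucose and burns fatty acids. The FoxO factors, the PPAR receptors and the glucocorticoid receptor are known regulators of the Pdk4 gene, and hypoxia-inducible factor is one of Pdk1.

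Of the 4 kinase genes, Pdk4 was the one that rose after dexamethasone, by 8.62-fold (95% interval 6.42 to 11.6). Pdk1, Pdk2 and Pdk3 did not pass the test, with fitted folds of 1.11, 0.893 and 0.860. Over the 9 genes, 1 was called higher by edgeR's quasi-likelihood test with Benjamini-Hochberg adjustment (threshold 0.05, adjusted over all 13285 genes tested), beside 0.0376% of all genes tested. None of the 9 was called lower, beside 0.0% of all genes. At an unadjusted p under 0.05, Pdk4 was again the 1 higher gene (beside 4.09% of all genes) and 0 were lower (beside 1.69%). DESeq2's Wald test called 1 of the 9, Pdk4, higher (beside 1.78%) and 0 lower (beside 0.399%). The likelihood ratio test of edgeR called the same gene higher (beside 1.83%) and 0 lower (beside 0.339%), and limma-voom called 0 of the 9 and 0 of all genes. More or fewer cells that transcribe a gene and more or less RNA per cell cannot be told apart in such bulk libraries.

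Pdk4 (ENSMUSG00000019577, chromosome 6, minus strand) had 69 and 147 counts in vehicle replicates 1 and 2 and 1002 and 2986 counts in dexamethasone replicates 1 and 2. As CPM, which are counts scaled to a common library total, here with TMM factors, these were 3.70 and 3.87 against 33.4 and 32.0. The vehicle libraries lay close together, the dexamethasone libraries lay close together, and the groups were far apart. Dividing each dexamethasone library by each vehicle library gave ratios from 8.26 to 9.03. The log2 fold change was 3.11 (SE 0.160, n = 2 per group), with an edgeR adjusted p of 0.0429, and 99.8% of tested genes had a lower value. The size held across the alternatives run (3.06 to 3.19) but the call did not: the adjusted p was 0.0825 without vehicle replicate 1, 0.110 with scaling by library size only and 0.1 with limma-voom.

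The bases upstream of the kinase genes are shown because 1 of these 4 paralogs, near relatives in sequence and task, passed the test and 3 did not; that difference itself was not tested. They are RefSeq promoter windows of build GRCm38.p6, cut where the GENCODE M21 annotation (GRCm38) places the first exon base, and are written 5′ to 3′ on the strand of the gene. Capitals mark each CpG dinucleotide. The stretches are chr2:71872974-71873223 (plus strand) for Pdk1, chr11:95041372-95041621 (minus) for Pdk2, chrX:93832202-93832400 (minus) for Pdk3 and chr6:5496310-5496528 (minus) for Pdk4.
Pdk1: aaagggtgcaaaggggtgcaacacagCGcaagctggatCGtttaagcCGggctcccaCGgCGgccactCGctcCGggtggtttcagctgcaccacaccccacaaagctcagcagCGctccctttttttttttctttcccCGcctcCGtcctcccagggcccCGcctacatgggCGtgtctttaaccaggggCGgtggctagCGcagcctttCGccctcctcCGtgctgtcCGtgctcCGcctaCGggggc
Pdk2: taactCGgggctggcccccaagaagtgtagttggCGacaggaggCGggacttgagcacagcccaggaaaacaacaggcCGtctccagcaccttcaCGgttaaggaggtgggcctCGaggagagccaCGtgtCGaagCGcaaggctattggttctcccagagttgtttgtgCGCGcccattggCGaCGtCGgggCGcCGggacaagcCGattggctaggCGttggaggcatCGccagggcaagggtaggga
Pdk3: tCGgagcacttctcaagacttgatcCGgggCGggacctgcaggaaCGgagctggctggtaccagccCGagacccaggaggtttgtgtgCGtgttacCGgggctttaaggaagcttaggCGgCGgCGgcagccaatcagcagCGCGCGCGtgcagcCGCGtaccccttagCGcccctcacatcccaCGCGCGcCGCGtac
Pdk4: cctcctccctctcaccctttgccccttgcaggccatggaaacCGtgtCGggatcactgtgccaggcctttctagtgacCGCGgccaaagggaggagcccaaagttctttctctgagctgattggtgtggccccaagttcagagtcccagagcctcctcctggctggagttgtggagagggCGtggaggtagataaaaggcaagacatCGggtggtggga

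Pdk4 had 6 CpG in the 219 bases shown, or 2.74 per 100 bases, against 7.60 for Pdk1, 7.60 for Pdk2 and 11.1 for Pdk3. Over the full 250 bases before the start, Pdk4 had 6 and Pdk3 had 29. Pdk1 had 19 at the start shown and 2 at its second start, and Pdk2 had 19 and 12. The median over all such windows was 6, so Pdk4 stood at the middle, Pdk3 and both Pdk2 starts stood above it, and the Pdk1 starts lay on either side.

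Windows were present for 8 of the 9 genes, with Pdp1 unmatched and with a second start each for Pdk1 and Pdk2, 10 windows in all. The 9 motifs that follow were searched on both strands in the 250 bases before each start, counted back from the start as base -1. The half-site of the glucocorticoid receptor, AGAACA, was found in 1 of the 10 windows, that of the second Pdk1 start, at bases -153 and -138, and in 16.1% of all 32851 windows. The full palindrome, which is AGAACA, then any 3 bases, then TGTTCT, and so contains the half-site, was in 0 of the 10 and in 0.00913% of all windows. The FoxO site GTAAACA (3.17% of all windows), the insulin response core CAAAACA (5.56%), the nuclear receptor half-site AAGGTCA (4.08%) and the box TATAAA (12.4%) were also in 0 of the 10. The box CCAAT was in 5 of the 10, including Pdk4 at base -131, and in 33.8% of all windows. The hypoxia response core ACGTG was in 5 of the 10 and in 16.6% of all windows. Those were Pdk3, Pdp2, Pdpr, Pdhb and the Pdk2 start shown, and neither Pdk1 window had it. The Sp1 box GGGCGG was in 5 of the 10 and in 32.7% of all windows. Both ACGTG and GGGCGG contain a CpG. Apart from Pdk4 (6 CpG) and the second Pdk1 start (2), the windows of these genes had from 11 (Pdp2) to 43 (Pdpr) CpG. The median over all windows was 6, and the shares of all windows given here were not matched for base composition. These matches describe letters in short windows and say nothing of binding here or elsewhere.

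Pdk1 (ENSMUSG00000006494), the kinase that also phosphorylates a site the others leave, had 223 and 491 counts in vehicle and 385 and 1391 in dexamethasone. These were 12 and 12.9 against 12.8 and 14.9 scaled CPM, so the groups overlapped by a hair. The log2 fold change was 0.16 (SE 0.174, 95% interval -0.30 to 0.62). Pdk2 (ENSMUSG00000038967), the widely expressed isoform, had 10.3 and 7.80 CPM in vehicle and 9.24 and 6.93 CPM in dexamethasone. Both replicate 1 libraries were above both replicate 2 libraries, and the log2 fold change of -0.16 (SE 0.257, 95% interval -0.84 to 0.52) turned positive without vehicle replicate 1 (0.05) and without dexamethasone replicate 2 (0.03). Dexamethasone over vehicle was 0.897 for Pdk2 between the replicate 1 libraries and 0.888 between the replicate 2 libraries. The labels do not say that the number marks a shared culture. Pdk2 overlaps Gm11513, an antisense gene that is not in the count table. Whether counting used strand is not given in the sources used here, so Pdk2 counts may include its reads. Pdk3 (ENSMUSG00000035232), the isoform least sensitive to pyruvate, had 17.6 and 18.3 CPM in vehicle and 13.4 and 17.5 CPM in dexamethasone. Neither dexamethasone library reached the vehicle range, and the ratios of dexamethasone to vehicle over all pairs of libraries ran from 0.731 to 0.990. The log2 fold change of -0.22 (SE 0.193, 95% interval -0.73 to 0.29) was not called, and it ran from -0.42 without dexamethasone replicate 2 to -0.04 without dexamethasone replicate 1. The edgeR adjusted p was 0.9999 for each of these 3 genes, and none of the upper ends of their intervals reached the lower end of that of Pdk4.

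**Figure D1:**
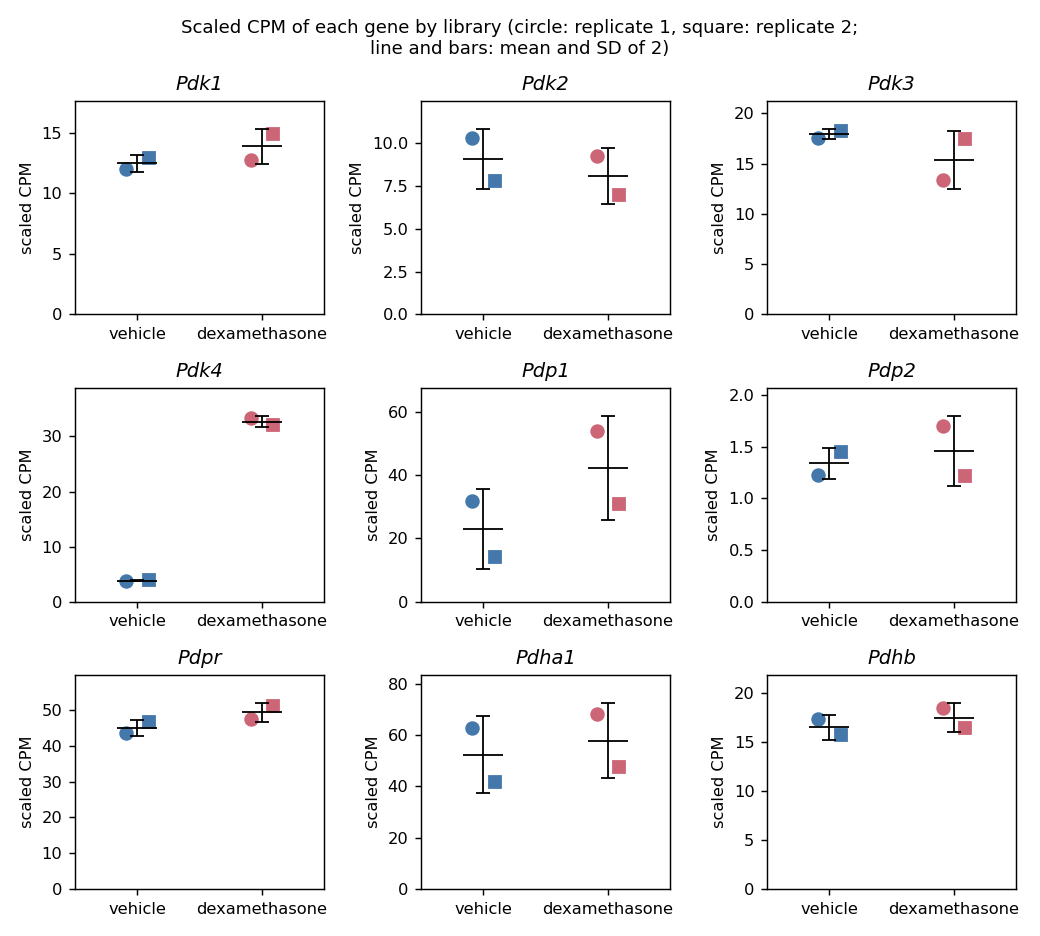
Scaled CPM (vertical axes, each from 0) of the 9 genes in the vehicle (blue) and dexamethasone (red) libraries, with circles for replicate 1, squares for replicate 2 and black lines with bars for mean and SD. Pdk4 goes from 3.70 and 3.87 to 33.4 and 32.0, while the other genes stay within overlapping or nearly touching ranges.

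**Figure D2:**
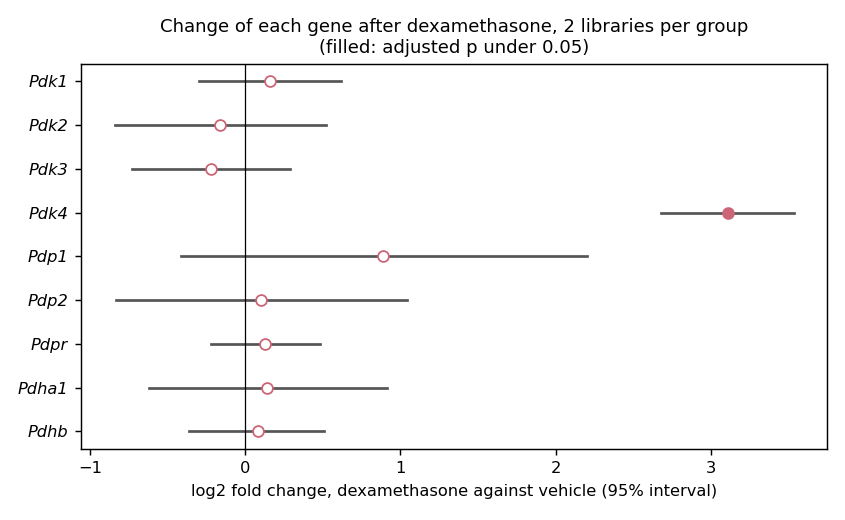
Log2 fold change of each gene, dexamethasone against vehicle (horizontal axis), with its 95% interval from the edgeR fit as a line and a filled point where the adjusted p is under 0.05. The interval of Pdk4, 2.68 to 3.53, is the one that lies clear of 0.

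The 4 kinase genes were also set against each other within each library. Pdk4 held 8.49% of the counts of the 4 kinase genes in vehicle replicate 1 (69 of 813, 95% Wilson interval 6.76% to 10.6%) and 9.02% in vehicle replicate 2 (147 of 1630, 7.72% to 10.5%). It held 48.5% in dexamethasone replicate 1 (1002 of 2066, 46.3% to 50.7%) and 44.9% in dexamethasone replicate 2 (2986 of 6656, 43.7% to 46.1%). Intervals cover counting error within a library only, not the spread between libraries. The reads carry no molecular identifiers, so repeated copies of a molecule cannot be told apart and the intervals may be too narrow. By raw counts Pdk4 thus went from the smallest share in both vehicle libraries to the largest in both dexamethasone libraries. Its mean share was 8.75% ± 0.376 against 46.7% ± 2.57 (SD, n = 2 each). This share does not depend on scaling between libraries. Its exact permutation p was 0.333 (two-sided), the smallest that 2 against 2 libraries can give.

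Pdk3 had the most counts of the kinases in vehicle, with 40.5% and 42.7%, and held 19.5% and 24.5% of a larger sum in dexamethasone. Pdk1 held 27.4% and 30.1% in vehicle and 18.6% and 20.9% in dexamethasone. Pdk2 held 23.6% and 18.2% against 13.4% and 9.72%. When each count was first divided by the exon length of its gene, Pdk4 had 8.28% and 8.90% in vehicle and 49.3% and 45.5% in dexamethasone. The vehicle order depends on the length used. Per kilobase of the whole gene, Pdk3 was the lowest kinase in vehicle (0.261 and 0.271 CPM), below Pdk4 (0.286 and 0.299 CPM). In dexamethasone Pdk4 was the highest kinase on that basis too (2.58 and 2.47 CPM). Against Pdk2 alone, Pdk4 had 0.359 and 0.497 counts per Pdk2 count in vehicle and 3.62 and 4.62 in dexamethasone.

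**Figure D3:**
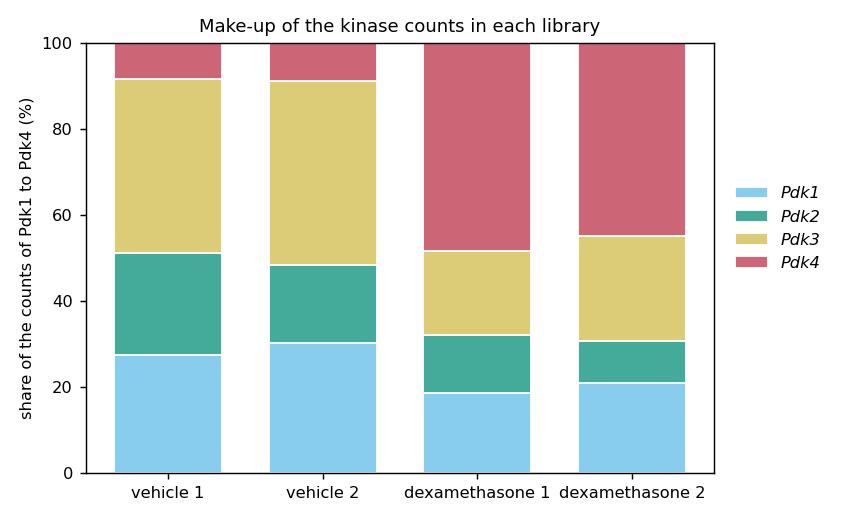
Share of the summed counts of Pdk1 to Pdk4 held by each gene (vertical axis, percent), 1 bar per library. The Pdk4 segment at the top grows from 8.49% and 9.02% in the vehicle bars to 48.5% and 44.9% in the dexamethasone bars.

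No phosphatase gene passed the test, though the largest value among them, a log2 fold change of 0.89 for Pdp1, was also the second largest among the 9 genes. Pdp1 (ENSMUSG00000049225, chromosome 4) encodes the calcium-activated catalytic subunit that is prominent in muscle. It had 594 and 530 counts in vehicle and 1620 and 2879 in dexamethasone, or 31.9 and 14.0 against 54.0 and 30.8 scaled CPM. Dexamethasone replicate 2 lay just below vehicle replicate 1, so the groups overlapped. The log2 fold change had an SE of 0.493, a 95% interval from -0.41 to 2.20 and an edgeR adjusted p of 0.9999. Leaving out a vehicle library gave 1.60 (replicate 1) or 0.41 (replicate 2), and leaving out a dexamethasone library gave 0.43 (replicate 1) or 1.25 (replicate 2).

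The wide spread of Pdp1 followed the replicate number: replicate 1 was 2.28 times replicate 2 in vehicle and 1.75 times in dexamethasone. The same held for the myotube markers, whose summed level was 124000 and 119000 CPM in the replicate 1 libraries and 43300 and 42200 CPM in the replicate 2 libraries, mostly from Ttn. Of the 10 markers, 9 had both replicate 1 libraries above both replicate 2 libraries. The part of this difference in the Pdp1 values was not tested. Dexamethasone over vehicle was 1.70 for Pdp1 between the replicate 1 libraries and 2.21 between the replicate 2 libraries, though the labels do not say that the number marks a shared culture. A fit with that number as a block called 2 of the 9 genes higher, Pdk4 and Pdp1 (beside 6.87% of all genes), and 0 lower (beside 5.78%). Among the 9 genes, Pdk2, Pdp1, Pdha1 and Pdhb were higher in both replicate 1 libraries (4 of 9, beside 31.8% of all genes tested) and Pdk1 was higher in both replicate 2 libraries (1 of 9, beside 32.1%).

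Pdp2 (ENSMUSG00000048371), the catalytic subunit that does not need calcium, had the fewest counts, 23 and 55 in the vehicle libraries and 51 and 114 after dexamethasone. These were 1.23 and 1.45 against 1.70 and 1.22 CPM, and the dexamethasone libraries spanned both vehicle values. Its log2 fold change was 0.10 with a 95% interval of -0.83 to 1.04, or 0.563 to 2.05 as a fold, the widest of the 9 genes after that of Pdp1. Pdpr (ENSMUSG00000033624), the regulatory subunit that restrains PDP1, had 43.6 and 46.7 CPM in vehicle and 47.6 and 51.3 CPM in dexamethasone. Both dexamethasone libraries were above both vehicle libraries, by little. Its log2 fold change was 0.13 (SE 0.132, 95% interval -0.22 to 0.48), the narrowest interval of the 9 genes. Pdpr overlaps 9430091E24Rik on the opposite strand, which had 23.1 and 25.4 CPM in vehicle and 27.8 and 30.0 CPM in dexamethasone. Whether the counting used strand is not given in the sources used here, so reads of this pair cannot be told apart.

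In all, both dexamethasone libraries were above both vehicle libraries in 2 of the 9 genes (Pdk4 and Pdpr), beside 15.0% of all genes, and below them in 1 (Pdk3), beside 12.9%. The median log2 fold change was 0.13 over the 9 genes and 0.00 over all genes tested.

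The counts of all kinases over the counts of all phosphatase subunits were 0.569 and 0.692 in vehicle and 0.667 and 0.855 in dexamethasone, and the groups overlapped (0.630 ± 0.0869 against 0.761 ± 0.133, SD, n = 2 each, two-sided exact permutation p = 0.667). With Pdk4 left out of the sum, the ratio was 0.521 and 0.629 in vehicle and 0.344 and 0.472 in dexamethasone, without overlap (exact permutation p = 0.333). Pdk4 over Pdp1 was 0.116 and 0.277 in vehicle and 0.619 and 1.04 in dexamethasone, again without overlap (exact permutation p = 0.333). These ratios describe RNA on chromatin, not enzyme. The phosphatase sum includes Pdpr, the regulatory subunit that restrains PDP1, with 812 and 1771 counts in vehicle and 1426 and 4790 in dexamethasone. Pdp1 gave 594 and 530 counts in vehicle and 1620 and 2879 in dexamethasone. The summed ratio thus does not set kinases against catalytic subunits alone, and Pdpr counts may hold reads of 9430091E24Rik.

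Both E1 subunit genes, whose proteins join in equal numbers in the enzyme, were not called. Pdha1 (ENSMUSG00000031299, on the X chromosome), the alpha subunit that carries the phosphorylation sites, had 62.9 and 41.7 CPM in vehicle and 68.2 and 47.4 CPM in dexamethasone. The replicate 1 libraries were 1.51 times (vehicle) and 1.44 times (dexamethasone) the replicate 2 libraries, more than the groups differed, and the log2 fold change was 0.14 (SE 0.288, 95% interval -0.62 to 0.91). Pdhb (ENSMUSG00000021748), the beta subunit, had 17.4 and 15.7 CPM in vehicle and 18.5 and 16.4 CPM in dexamethasone, a log2 fold change of 0.08 (SE 0.164, 95% interval -0.36 to 0.51). The edgeR adjusted p was 0.9999 for both. Pdha1 overlaps Map3k15 on the other strand, and 12.9% of the 50-base stretches in its transcripts, like 11.4% of those of Pdhb, also occur in transcripts of other genes. How such reads were counted is not given in the sources used here. For Pdk4 this share was 1.40%, and for Pdk1, Pdk2, Pdk3 and Pdp1 it was 0.

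Levels can be compared between genes per length only, here as scaled CPM per kilobase of exon. In vehicle the order ran from Pdha1 (16.9 and 11.2) through Pdpr (8.66 and 9.28), Pdk3 (6.89 and 7.16), Pdp1 (7.07 and 3.10), Pdhb (4.52 and 4.05), Pdk2 (3.26 and 2.47), Pdk1 (1.54 and 1.66) and Pdk4 (1.05 and 1.1) to Pdp2 (0.217 and 0.255). The range of Pdp1 overlapped those of Pdk3, Pdhb and Pdk2, and the other neighbours in this order did not overlap. In dexamethasone Pdk4 reached 9.52 and 9.11 per kilobase and took place 4 instead of 8, and its range overlapped those of Pdp1 (12 and 6.84) and Pdpr (9.46 and 10.2). Pdp1 stood above Pdk3 (5.24 and 6.82) in dexamethasone and below it in vehicle, and apart from Pdk4 and Pdp1 the genes kept their order. If counts also cover introns, the length of the whole gene applies. Pdk4 then stood at place 7 in vehicle and 3 in dexamethasone, and Pdk3, a long gene, dropped from place 3 to 8 in vehicle. The alpha subunit gene stood above the beta subunit gene by an amount that depends on the length used. By exon length, Pdha1 had 3.73, 2.75, 3.81 and 2.99 times the exon-length level of Pdhb in vehicle 1, vehicle 2, dexamethasone 1 and dexamethasone 2. Per kilobase of the whole gene, Pdha1 had 3.88 and 2.57 CPM in vehicle and 4.21 and 2.93 CPM in dexamethasone, much nearer to Pdhb with 2.48 and 2.23 CPM and 2.63 and 2.33 CPM.

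The rest of the pathway was described through 6 lists. In none did a gene pass over all genes in edgeR's quasi-likelihood test, in either direction. Among other parts of the complex and its lipoylation, 5 of 7 genes were tested, with a median log2 fold change of 0.09 and 0 at an unadjusted p under 0.05; DESeq2, the likelihood ratio test and limma-voom also called 0. The smallest p belonged to Pdhx, the E3-binding protein (0.14, SE 0.127), Dld, the E3 subunit (0.23, SE 0.252), and Lipt2, a lipoyl transferase (-0.37, SE 0.466). Dlat, the E2 core of the complex, was listed at 0 in every library. It stands, like Me1 of the next list, in a run of 371 neighbouring genes on 1 strand of chromosome 9 that have no count in any library, so no level can be read for either.

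Of 16 genes of pyruvate supply and use, 14 were tested, with a median of -0.14. Without adjustment 1 was higher and 0 were lower at p under 0.05, and the other tools called 0. Over all genes these unadjusted shares were 4.09% and 1.69%, so 1 gene of 14 does not set the list apart. The gene was Pcx, pyruvate carboxylase, which feeds pyruvate into the citric acid cycle past pyruvate dehydrogenase. It had 68.2 and 86.8 CPM in vehicle and 108 and 105 CPM in dexamethasone, a log2 fold change of 0.46 (SE 0.162, edgeR adjusted p 0.797). Pkm, muscle pyruvate kinase, had -0.34 (SE 0.213) and Ldha, lactate dehydrogenase A, -0.30 (SE 0.200). The mitochondrial pyruvate carrier genes Mpc1 and Mpc2 had 0.05 and 0.07. The 9 genes of the sister dehydrogenase complexes, with their own kinase and phosphatase, had a median of -0.04 and 0 at an unadjusted p under 0.05 or by any other tool. Bckdk, the kinase of the branched-chain complex and a relative of the PDK enzymes, had 10.2 and 9.51 against 9.34 and 8.69 CPM (log2 fold change -0.13, SE 0.174). Bckdhb, its E1 beta subunit (-0.28, SE 0.201), and Dbt, its E2 core (0.17, SE 0.146), were the others of the smallest p.

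All 16 regulators known to act on Pdk genes were tested, with a median of -0.04. Without adjustment 1 was higher and 2 were lower at p under 0.05, and DESeq2 and the likelihood ratio test each called 1 higher and 1 lower, while limma-voom called 0. Beside these counts, all genes had 4.09% higher and 1.69% lower unadjusted, 1.78% and 0.399% in DESeq2, and 1.83% and 0.339% in the likelihood ratio test. Foxo3, a FoxO factor, had 202 and 244 CPM in vehicle and 658 and 592 CPM in dexamethasone, a log2 fold change of 1.49 (SE 0.162, edgeR adjusted p 0.123). Ppargc1b, a coactivator of PPAR and estrogen-related receptors, had 164 and 164 against 112 and 110 CPM (-0.57, SE 0.113, adjusted p 0.306). Nr3c1, the glucocorticoid receptor gene, had -1.03 (SE 0.251, adjusted p 0.430). Ppara, Ppard and Pparg lay between -0.18 and -0.04.

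Fatty acid use genes that are known to rise beside Pdk4 in fasted muscle had a median of 0.00 (16 of 19 tested). Cpt1b was listed at 0 in every library and was not tested, so the median does not cover it. Whether this 0 is a lack of RNA or comes from the counting cannot be told from the counts. Without adjustment 0 genes were higher and 1 was lower at p under 0.05. DESeq2 and the likelihood ratio test called 0 higher and 1 lower, and limma-voom called 0. The shares of all genes that were lower were 1.69% unadjusted, 0.399% in DESeq2 and 0.339% in the likelihood ratio test, and 1 gene of 16 does not set the list apart. Lpl, lipoprotein lipase, was the lower one, with 9.23 and 7.77 CPM in vehicle and 3.47 and 3.79 CPM in dexamethasone (log2 fold change -1.22, SE 0.214, edgeR adjusted p 0.230). Cpt2, a carnitine palmitoyltransferase, had 0.46 (SE 0.182) and Plin2, a lipid droplet coat protein, -0.47 (SE 0.233). The 12 targets of hypoxia-inducible factor had a median of 0.00. Without adjustment 1 was higher and 0 were lower at p under 0.05, and the other tools called 0. With 4.09% of all genes higher and 1.69% lower in that way, 1 gene of 12 does not set the list apart. Pfkfb3, which raises the activator of phosphofructokinase, had 10.4 and 13 against 21.6 and 19.1 CPM (0.79, SE 0.191, edgeR adjusted p 0.418). Bnip3 (0.60, SE 0.311) and P4ha1 (-0.17, SE 0.125) followed.

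**Figure D4:**
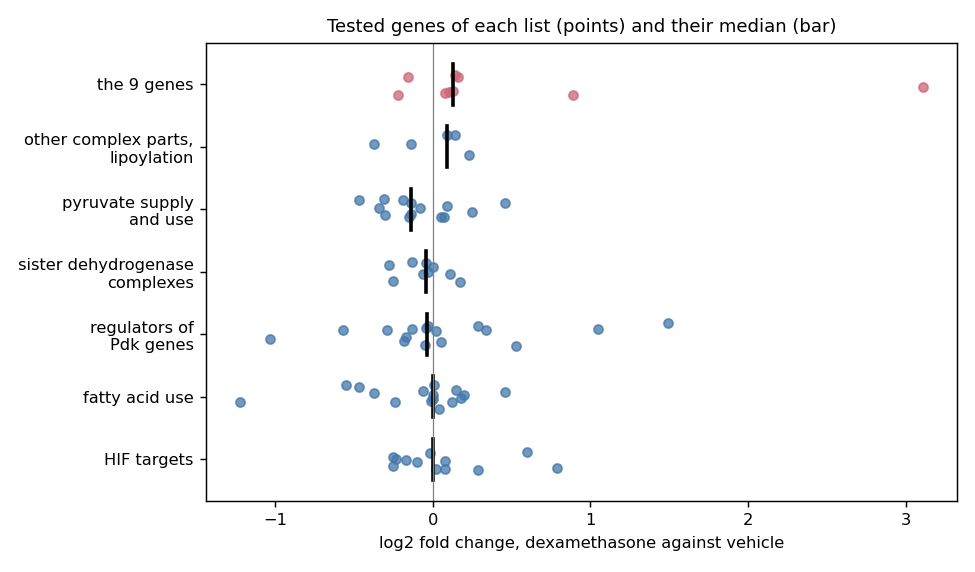
Log2 fold change, dexamethasone against vehicle (horizontal axis), of each tested gene of the 9 described here (red) and of the 6 pathway lists (blue), with vertical jitter and a black bar at each median. Pdk4 at 3.11 lies to the right of every other point, the next being Foxo3 at 1.49, and the list medians lie between -0.14 and 0.09.

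The genes whose profile over the 4 libraries was nearest to that of Pdk4, by Euclidean distance of centred log2 CPM, were Clca1 (0.324), Arl4d (0.336), Plin4 (0.438), Ace (0.494) and Mt1 (0.528). Plin4, a lipid droplet coat protein, went from 2.15 and 2.19 to 17.7 and 12.7 CPM. Arl4d, a small GTPase, went from 0.644 and 0.870 to 7.97 and 6.10 CPM. Mt1, a metallothionein, went from 4.94 and 6.11 to 38.6 and 30.5 CPM. Clca1 (2, 3, 39 and 95 counts) and Ace (2, 6, 64 and 162 counts) rest on a few vehicle reads. Over 4 libraries such a distance mainly compares the size of the difference between groups, and none of the 5 passed over all genes.

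The genomic neighbours of Pdk4 were examined next. Of the 3 nearest listed genes on each side, none of those tested passed in edgeR. Asb4 and 1700019G24Rik fell below the filter on low counts and were not tested. Asb4, the nearest at 50.3 kb, had 3, 0, 6 and 9 counts, and 1700019G24Rik had 0 in every library. Pon2 had a log2 fold change of 0.15 (SE 0.149), Pon3 0.74 (SE 0.198, adjusted p 0.503), Dync1i1 -0.17 (SE 0.580) and Slc25a13 0.58 (SE 0.214, adjusted p 0.836). Beside Pdp1, 1700123M08Rik starts 0.1 kb away on the opposite strand, and it was singled out after its values were seen. It had 20.3 and 14.9 CPM in vehicle and 33.9 and 32.2 CPM in dexamethasone, without overlap. Its log2 fold change was 0.91 (SE 0.201, edgeR adjusted p 0.352), close in size to that of Pdp1. The neighbours Gem (1.33, SE 0.192, edgeR adjusted p 0.181) and Cdh17 (2.25, SE 0.602, edgeR adjusted p 0.499) were also higher without overlap. Cdh17 had 1, 3, 12 and 28 counts. Tmem67 (0.19) and Rbm12b2 (0.17) overlapped between groups, and Fsbp had 0 counts in every library.

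Library totals ran from 19631435 to 88596296 counts, smallest in vehicle replicate 1 and largest in dexamethasone replicate 2. All 10 myotube markers passed the filter on low counts, from Ttn down to Ckm (53.6, 6.98, 50.6 and 7.72 CPM). Markers of other cells were low: the 5 cycling-cell markers summed to between 23.1 and 28.5 CPM, the 4 immune markers to between 5.04 and 7.64 CPM, the 4 endothelial markers to between 1.90 and 2.47 CPM and the 6 adipocyte markers to at most 0.211 CPM, with Cfd and Cidec at 0. The 5 myoblast or reserve-cell markers summed to 112 and 134 CPM in vehicle and 137 and 129 CPM in dexamethasone. Within that list Pax7 was lower in both dexamethasone libraries (32.0 and 39.0 against 17.9 and 22.9 CPM) and Sdc4 higher (46.3 and 61.6 against 94.2 and 78.7 CPM), neither called in edgeR. Their part in the rise of Pdk4 was not tested.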

How the data were processed

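Chromatin-bound RNA of 4 libraries was sequenced, 2 per group. Both a stranded total RNA kit and a stranded mRNA kit are named, per the labels' protocols. The authors deposited raw read counts per gene in a single table. TopHat2 2.0.13, SAMtools 1.1, HTSeq 0.6.1, DESeq2 1.18.1 and build mm9 are named, per the submitters' processing notes, without roles or settings; annotation, strand setting and whether introns were counted are not given in the sources used here. Of 23333 rows, 51 that repeat a symbol and all counts were dropped, and 5402 of the remaining features had 0 counts in every library.

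Genes passing filterByExpr (minimum count 10, minimum total 15; 13285 genes, all 9 among them) were scaled by TMM (factors 0.924 to 1.08) and tested in edgeR 4.0.16 (R 4.3.3) with glmQLFit and glmQLFTest, group as the only term, two-sided, Benjamini-Hochberg over all genes, threshold 0.05. Intervals of log2 fold changes are 95% intervals with 4.56 degrees of freedom. Alternatives used DESeq2 1.42.0 and limma 3.58.1. Log2 CPM for profile distances had a prior count of 2. Totals were 19631435 to 88596296 counts, so precision is least in vehicle replicate 1. Exact permutation tests used scipy 1.17.1. Exon lengths came from GENCODE M21 (GRCm38, another build than the files') by Ensembl identifier and promoters from RefSeq (GRCm38.p6). The fits were tested on simulated counts drawn without a replicate effect, so that test does not cover the replicate differences of these libraries.

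The genes and lists were chosen with earlier results of these data known. Genes were named by rule: the 9 genes, from each list those past the threshold or else the 3 with the smallest p, and the 5 nearest profiles to Pdk4. Other genes were named after their values were seen: Dlat, Cpt1b, Mpc1, Mpc2, the PPAR genes, the genomic neighbours, Ttn and single markers.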

Additional observations from a re-analysis of the deposited data

How the results depend on the processing

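The Pdk4 log2 fold change kept its direction throughout and lost its call in 3 alternatives: scaling by library size only (3.06, adjusted p 0.110), limma-voom (3.09, 0.1) and without vehicle replicate 1 (3.08, 0.0825). Without single libraries it ran from 3.08 to 3.14; a group left with 1 library was assumed to vary like the other. Of the 9 genes 1 was called; this became 0 with library size only and 0 with limma-voom, and ran from 0 (without vehicle replicate 1) to 1 without single libraries. Over all genes 5 were called, against 289 in DESeq2's Wald test, 288 in the likelihood ratio test, 0 in limma-voom and 23 with no filter beyond 1 count; without single libraries 4 to 64. A block on replicate number gave 1681 calls over all genes and 2 among the 9: Pdk4 (3.09, adjusted p 3.12e-05) and Pdp1 (0.95, 0.002). The block changed the call of no other of the 9. The labels do not say that the number marks a shared batch; replicate 1 minus replicate 2 differences correlated between groups across genes (r = 0.734), and each number has 1 library per group. Why these counts moved was not tested.

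For the 8 other genes, 103 of 112 alternatives kept direction and side, 1 became stronger (Pdp1 above) and 8 reversed, all uncalled: Pdk2 without dexamethasone replicate 2 (0.03) and without vehicle replicate 1 (0.05), Pdp2 under limma-voom (-0.0043), without dexamethasone replicate 1 (-0.14) and without vehicle replicate 1 (-0.0026), Pdha1 without dexamethasone replicate 1 (-0.14) and without vehicle replicate 2 (-0.12), and Pdhb without dexamethasone replicate 1 (-0.01). Leaving out single libraries took Pdk2 from -0.38 to 0.05, Pdp2 from -0.14 to 0.34, Pdha1 from -0.14 to 0.47 and Pdhb from -0.01 to 0.16. Between libraries of the same number (replicate 1, then 2), dexamethasone over vehicle was 0.897 and 0.888 for Pdk2 and 1.08 and 1.14 for Pdha1. It was 1.06 and 1.05 for Pdhb, and 1.38 and 0.842 for Pdp2. The Pdk4 share of kinase counts differed by 36.1 to 39.7 percentage points without single libraries and by 38.8 per exon length, and the kinase to phosphatase ratio differed by 0.0367 to 0.225 without single libraries. With whole-gene lengths Pdk4 stood at place 7 in vehicle and 3 in dexamethasone. Thinning to the smallest total was chosen after seeing the data and changed no call among the 9. Depth limits Pdp2 most, at 23 to 114 counts.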
